A study of Mus musculus with 4 samples.

Results

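Lysosomal genes were examined in mouse osteoclast precursors that kept or lost Piezo1, a mechanically gated cation channel. The 39 genes were taken by symbol from the 12799 genes of the expression table, and all 39 were listed and passed the filter on low values (1 CPM or more in at least 2 libraries). CPM is the number of reads of a gene relative to the scaled size of its library. By role, 11 encode proteases (9 cathepsins other than cathepsin K, Lgmn and Tpp1), 10 glycosidases, 4 sulfatases, 5 lipid hydrolases or their activator, 6 membrane proteins, and 3 the regulators Tfeb, Tfe3 and Grn. The list was drawn up by function, with earlier results of these data known.

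Bone marrow cells came from 12-week-old female mice. Non-adherent cells were expanded with M-CSF at 30 ng/mL and then kept for 3 days with M-CSF at 30 ng/mL and RANKL at 50 ng/mL, the cytokine that drives osteoclast formation. Controls were Piezo1fl/fl (n = 2), and knockouts were Csf1r-iCre;Piezo1fl/fl (n = 2), so both groups carried the loxP-flanked alleles, and no control carried the Cre recombinase. Csf1r drives the recombinase in the monocyte lineage, and an effect of the transgene cannot be told apart from one of Piezo1 loss. All 4 libraries carry the same batch label. Poly(A) RNA was sequenced, and the deposited values gave back 14122118 to 18897927 reads per library, of which 347093 to 514326 fell on the 39 genes. The lowest count of any of them in any library was 204 reads.

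Piezo1 itself was at 430.1 and 384 CPM in the controls and at 61.0 and 56.2 CPM in the knockouts (log2 fold change −2.79, adjusted p = 8.23e-05). Here and below p comes from limma, a linear model fitted over the 11781 genes tested with variances shared across genes, and adjusted p is by Benjamini and Hochberg over all of them. All 10 osteoclast markers and all 10 macrophage markers that were checked were present, and 0 of 9 markers of B, T and NK cells were among the listed genes. Summed osteoclast markers were at 62679 and 59742 CPM in the controls and at 60635 and 75264 CPM in the knockouts, so that knockout 2 was the highest. Macrophage markers summed to 3554 and 3036 CPM in the controls and to 3397 and 3653 CPM in the knockouts. Stromal, fibroblast and osteoblast markers, 14 of 15 listed, summed to 2161 and 2644 CPM in the controls and to 1498 and 1401 CPM in the knockouts. Of these 14, 13 had a negative log2 fold change and 1 passed the limma test (9 with DESeq2), and the part of this difference in the values below was not tested. Neutrophil markers, 8 of 9 listed, summed to between 50.9 and 89.8 CPM per library, and 1 of 5 dendritic cell markers was listed. In bulk RNA, fewer cells of a type and less RNA per cell cannot be told apart.

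Lysosomes are acidic organelles that break down proteins, sugars, lipids and sulfated matrix chains. Most of their enzymes are tagged in the Golgi with mannose 6-phosphate, which carries them to the lysosome. In osteoclasts, lysosomes also fuse with the membrane facing bone and release their hydrolases, cathepsin K among them, onto the matrix. The transcription factors TFEB and TFE3 bind E-box sequences in promoters of many lysosomal genes (the CLEAR network), and their activity is set largely by phosphorylation and entry into the nucleus, which RNA levels do not measure.

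Promoter letters were read from RefSeq windows on GRCm38.p6 that run from 250 bases before to 50 bases after a gene's start, and 35 of the 39 genes had 41 such windows (Ctsb, Ctsh, Galns and Asah1 had none). The E-box core CACGTG, which reads the same on both strands, was present in 12 of the 41 windows (29.3%), 1 for each of 12 genes, against 7.15% of all 32851 windows and 10.1% of the 11945 windows of tested genes. The longer TCACGTGA, which contains that core, was in 4 windows (9.76%), those of Ctsa, Ctsd, Gla and Mcoln1. Its share was 0.974% of all windows and 1.89% of the windows of tested genes. TCACGTGA with a G before it and a C after it was in 0 of the 41, against 0.326% of all and 0.728% for tested genes. TCATGTG, a sequence bound by the related factor MITF, was searched on both strands and was present for 7 genes. It was in 17.1% of the 41 windows, 3.77% of all windows and 2.11% of the windows of tested genes. A match shows only that the letters are there. The stretches below are shown because they belong to genes the results turn on: Glb1 and Lgmn had an unadjusted p under 0.05, Ctsd was the protease with the highest level per length, Lamp1 had the most E-boxes, and Mcoln1 encodes the lysosomal calcium channel upstream of TFEB. Each is printed 5′ to 3′ on the gene's own strand, with CACGTG in capitals. The Lgmn stretch is from a window inside the annotated gene, and the Lgmn window that covers the annotated start held no core.
Glb1, chr9:114401016-114401049, plus strand: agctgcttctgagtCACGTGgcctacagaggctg
Lgmn, chr12:102439122-102439155, minus strand: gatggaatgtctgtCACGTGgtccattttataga
Ctsd, chr7:142387906-142387939, minus strand: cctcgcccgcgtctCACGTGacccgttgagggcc
Mcoln1, chr8:3500434-3500493, plus strand: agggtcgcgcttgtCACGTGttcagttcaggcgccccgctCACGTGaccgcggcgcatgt
Lamp1, chr8:13159086-13159165, plus strand: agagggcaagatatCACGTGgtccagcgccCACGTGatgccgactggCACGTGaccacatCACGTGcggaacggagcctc

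Lamp1 held 4 cores within a stretch of 80 bases, the first at 61 bases before the start, and Glb1 held 1 at 48 bases before it. Of the other genes described in detail, Ppt1 held TCATGTG at position 14 after the start, shown in capitals, and the window of Man2b1, which had the smallest p of the 39 genes, held none of these motifs and is given whole for that reason.
Ppt1, chr4:122836226-122836260, plus strand: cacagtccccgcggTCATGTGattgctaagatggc
Man2b1, chr8:85083019-85083318, plus strand: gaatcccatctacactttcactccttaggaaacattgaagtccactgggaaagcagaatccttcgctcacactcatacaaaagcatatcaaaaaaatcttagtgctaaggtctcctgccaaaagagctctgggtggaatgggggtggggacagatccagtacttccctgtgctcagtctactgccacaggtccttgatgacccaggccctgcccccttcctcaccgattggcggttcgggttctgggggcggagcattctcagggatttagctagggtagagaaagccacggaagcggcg

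Levels were compared between genes per kb of annotated exon. The order in the controls was led by Hexa, the alpha subunit of beta-hexosaminidase, at 1124 ± 27.96 CPM per kb (SD, n = 2), followed by the aspartic protease Ctsd at 1029 ± 61.1 CPM per kb and the carboxypeptidase Ctsz at 973 ± 38.8 CPM per kb. Psap, the precursor of the saposins that present lipids to hydrolases, was at 849 ± 34.1 CPM per kb. For comparison, cathepsin K (Ctsk), which is not among the 39, stood at 15504 ± 358 CPM per kb in the same libraries, 13.8 times the level of Hexa. At the other end were Ctsf at 2.76 ± 0.18 CPM per kb, Tfeb at 4.52 ± 0.25 CPM per kb and Tfe3 at 5.39 ± 0.65 CPM per kb. The range from Ctsf to Hexa was 408-fold. Of the 38 neighbouring pairs in this order, 18 differed by no more than the larger of their SDs, so the order inside such pairs is not resolved. No gene moved by more than 2 places in the order between genotypes.

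**Figure D1:**
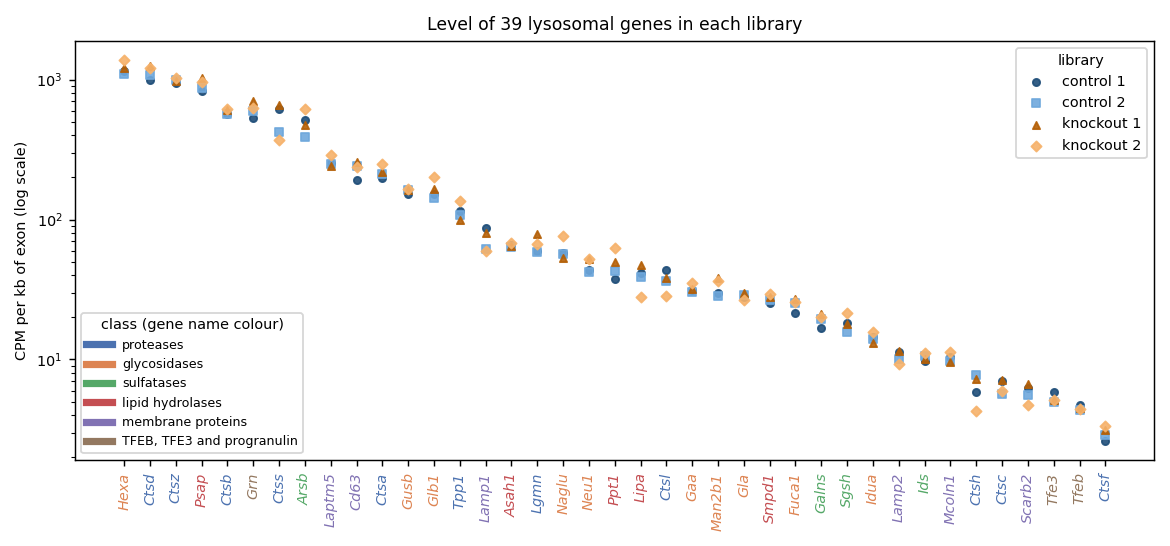
Level of the 39 lysosomal genes (CPM per kb of exon, log axis) in each of the 4 libraries, in the order of the control mean, with gene names coloured by class. The order runs from Hexa at 1124 CPM per kb to Ctsf at 2.76 CPM per kb, and the 4 libraries of a gene lie close together next to that range, with Ctss among the most spread.

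The comparison asks whether lysosomal transcripts differ when Piezo1 is lost. The genes with the smallest p encode soluble hydrolases, as do most of the 39. These were the glycosidases Man2b1, Neu1 and Glb1, the thioesterase Ppt1 and the protease Lgmn. All had higher values in both knockouts than in both controls. Differences were small, at most 0.47 on the log2 scale, and 0 of 39 genes passed at an adjusted p under 0.05 with limma, edgeR or DESeq2, against 0.161% of the 11781 genes tested with limma, 0.161% with edgeR and 0.56% with DESeq2. At an unadjusted p under 0.05 there were 5 of 39, against 4.9% of all genes tested. All 5 were higher in the knockouts and 0 lower, where 1.35% of all genes were higher and 3.55% lower. The median log2 fold change of the 39 was 0.09, against 0.0016 over all genes tested. Of the 39, 29 were positive and 10 negative (74.4% positive, against 50.5% of all genes). Markers of osteoclasts (8 of 10 positive, median 0.11) and macrophages (9 of 10, median 0.14) leaned the same way, but not in both knockouts. Against the control mean, the median deviation of osteoclast markers was −0.10 in knockout 1 and 0.31 in knockout 2. That of macrophage markers was 0.35 in knockout 1 and −0.02 in knockout 2. Stromal, fibroblast and osteoblast markers (1 of 14 positive) and neutrophil markers (2 of 7 tested) leaned the other way.

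In 17 of the 39 genes both knockouts lay above both controls, in 0 both lay below, and in 22 the groups overlapped. Over all genes tested the groups did not overlap in 31.9%, with knockouts higher in 16.5% and lower in 15.4%. With totals in place of the authors' scaling the counts were 14 higher and 0 lower, against 12.5% and 18.4% of all genes. After quantile normalisation they were 13 and 0, against 17.3% and 13.7%. All 39 genes were read from the same 4 libraries, so these counts are not independent observations. The 95% confidence interval of the log2 fold change stayed within a 1.5-fold change in either direction (0.585) for 33 of the 39 genes, the exceptions being Ctsh, Ctsl, Ctss, Arsb, Lipa and Ppt1.

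**Figure D2:**
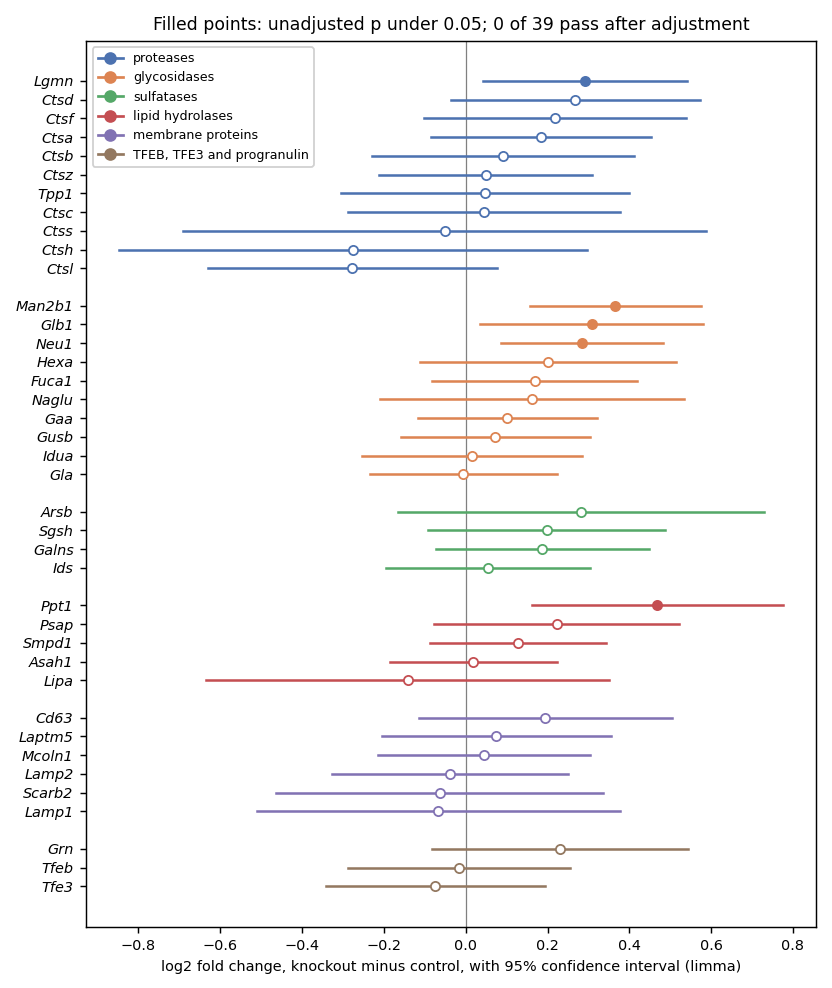
log2 fold change (knockout minus control) of each gene with its 95% confidence interval from limma, grouped by class, with filled points where the unadjusted p was under 0.05. The 5 filled points, Man2b1, Ppt1, Neu1, Lgmn and Glb1, all lie to the right of 0, and 0 of the 39 genes pass after adjustment.

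Among the proteases, which include the cysteine cathepsins that cut proteins in the acidic lumen, 8 of 11 had a positive log2 fold change, and the median was 0.05. Lgmn, an asparaginyl endopeptidase that also matures cathepsins (chromosome 12, 102394084 to 102439813, minus strand, GRCm38), was at 138 and 137 CPM in the controls and at 184 and 154 CPM in the knockouts. Both knockouts were above both controls, with a log2 fold change of 0.29 (SE 0.11, 95% confidence interval 0.04 to 0.54, limma unadjusted p = 0.0278, adjusted p = 0.943). Ctsd was at 2318 and 2521 CPM in the controls and at 2953 and 2869 CPM in the knockouts. These groups did not overlap, and the log2 fold change was 0.27 (interval −0.04 to 0.57, adjusted p = 0.9998), while 34.4% of its annotated exon bases are shared with another gene model on the same strand. Ctsz was at 1362 and 1441 CPM in the controls and at 1418 and 1481 CPM in the knockouts, which overlapped (log2 fold change 0.05, interval −0.21 to 0.31).

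Of the 8 other proteases, 3 had both knockouts above both controls, as 16.5% of all genes tested did, and 5 overlapped. Ctsb, the most abundant of the 39 by CPM, was at 3459 and 3452 CPM in the controls and at 3663 and 3699.9 CPM in the knockouts, a narrow separation. Ctsa, a carboxypeptidase that protects the galactosidase and sialidase, and the low-level Ctsf also had both knockouts above both controls. Ctss, a cathepsin of antigen presentation, was at 837 and 574 CPM in the controls and at 893 and 500.5 CPM in the knockouts. Its gap inside each genotype was larger than the difference between the genotype means. Ctsl, another endopeptidase of antigen processing, was at 285 and 237 CPM in the controls and at 247 and 186 CPM in the knockouts, and the aminopeptidase Ctsh was at 26.3 and 35.1 CPM and at 32.5 and 19.2 CPM. In Ctss, Ctsl and Ctsh the lowest of the 4 values belonged to knockout 2, and the log2 fold changes were −0.05, −0.28 and −0.28. The intervals of these 3 genes reached as low as −0.85, for Ctsh. Ctsc, which activates serine proteases of granules, and Tpp1, a tripeptidyl peptidase, overlapped between genotypes with log2 fold changes of 0.04 and 0.05.

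Glycosidases, which remove sugars from glycoproteins, glycolipids and matrix chains, were positive in 9 of 10 cases, with log2 fold changes centred on 0.16 (median). Knockouts lay above controls without overlap in 7 of the 10, against 16.5% of all genes tested. Man2b1, the lysosomal alpha-mannosidase (chromosome 8, 85083270 to 85098282, plus strand), was at 238 and 227 CPM in the controls and at 309 and 292 CPM in the knockouts. The gap between the groups was wider than the gap inside either, with a log2 fold change of 0.37 (SE 0.09, interval 0.16 to 0.58, unadjusted p = 0.00405, limma adjusted p = 0.435, DESeq2 adjusted p = 0.247). Neu1, the sialidase (chromosome 17, 34931253 to 34935953, plus strand), was at 162 and 158 CPM in the controls and at 194 and 196 CPM in the knockouts. Replicates of Neu1 were close in both genotypes, with a log2 fold change of 0.28 (SE 0.09, interval 0.09 to 0.48, unadjusted p = 0.0112, adjusted p = 0.734). Glb1, the beta-galactosidase (chromosome 9, 114401076 to 114474898, plus strand), was at 455 and 429 CPM in the controls and at 497 and 601 CPM in the knockouts. Its knockouts differed from each other by more than knockout 1 did from the controls (log2 fold change 0.31, interval 0.04 to 0.58, unadjusted p = 0.0314, adjusted p = 0.951).

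Hexa was at 2283 and 2204 CPM in the controls and at 2404 and 2766 CPM in the knockouts (log2 fold change 0.20, interval −0.11 to 0.51, adjusted p = 0.9998). Its groups did not overlap, and knockout 2 was the higher knockout. Fuca1, the fucosidase, Gaa, the glucosidase that degrades glycogen, and Gusb, the glucuronidase, also did not overlap, with log2 fold changes of 0.17, 0.10 and 0.07. Naglu, an enzyme of heparan sulfate breakdown, was at 153 and 151 CPM in the controls and at 142 and 204 CPM in the knockouts, so that the knockouts lay on either side of the controls. Idua, the iduronidase, and Gla, the alpha-galactosidase, had log2 fold changes of 0.02 and −0.0056.

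Sulfatases, which take sulfate from glycosaminoglycans, were positive in 4 of 4 cases (median log2 fold change 0.19). Knockouts lay above controls without overlap only in Galns, where 16.5% of all genes tested did so. Arsb, which acts on dermatan and chondroitin sulfate, was by far the most abundant, at 3099 and 2358 CPM in the controls and at 2882 and 3746 CPM in the knockouts. The groups overlapped, and the interval was among the widest of the 39 (log2 fold change 0.28, interval −0.17 to 0.73, adjusted p = 0.9998). The value for Arsb turned on single libraries: leaving out control 1 gave 0.48, control 2 gave 0.08, knockout 1 gave 0.47 and knockout 2 gave 0.09. Of the exon bases of Arsb, 39.9% are shared with gene models on the opposite strand. Galns, which acts on keratan sulfate, lies 26.9 kb from Piezo1 on chromosome 8 (122578242 to 122611463, minus strand), whose annotated end is at 122551329. Galns was at 44.6 and 51.7 CPM in the controls and at 56.3 and 53.3 CPM in the knockouts (log2 fold change 0.19, interval −0.07 to 0.45, adjusted p = 0.9998). Sgsh and Ids, which act on heparan sulfate, had log2 fold changes of 0.20 and 0.05.

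The lipid hydrolases included the gene with the largest difference of the 39. Ppt1, which removes palmitate from proteins (chromosome 4, 122836242 to 122859175, plus strand), was at 139 and 157 CPM in the controls and at 181 and 231 CPM in the knockouts. Both knockouts were above both controls, and knockout 2 was the higher (log2 fold change 0.47, SE 0.13, interval 0.16 to 0.78, unadjusted p = 0.00822, limma adjusted p = 0.616, DESeq2 adjusted p = 0.171). Without knockout 1 its log2 fold change was 0.64 and it passed (adjusted p = 0.0441), and without knockout 2 it was 0.296 (adjusted p = 0.823). Psap was at 2264 and 2397 CPM in the controls and at 2803 and 2636 CPM in the knockouts, without overlap (log2 fold change 0.22, interval −0.08 to 0.52, adjusted p = 0.9998). Smpd1, the acid sphingomyelinase, also did not overlap (log2 fold change 0.13). Asah1, the acid ceramidase, was at 225 and 216 CPM in the controls and at 218 and 229 CPM in the knockouts (log2 fold change 0.02, interval −0.19 to 0.22). Lipa, the acid lipase that frees cholesterol from its esters, was at 280.5 and 264 CPM in the controls and at 319.5 and 191 CPM in the knockouts. Its knockouts were thus the highest and the lowest of the 4 libraries. The class median was 0.13, with 4 of 5 positive.

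**Figure D3:**
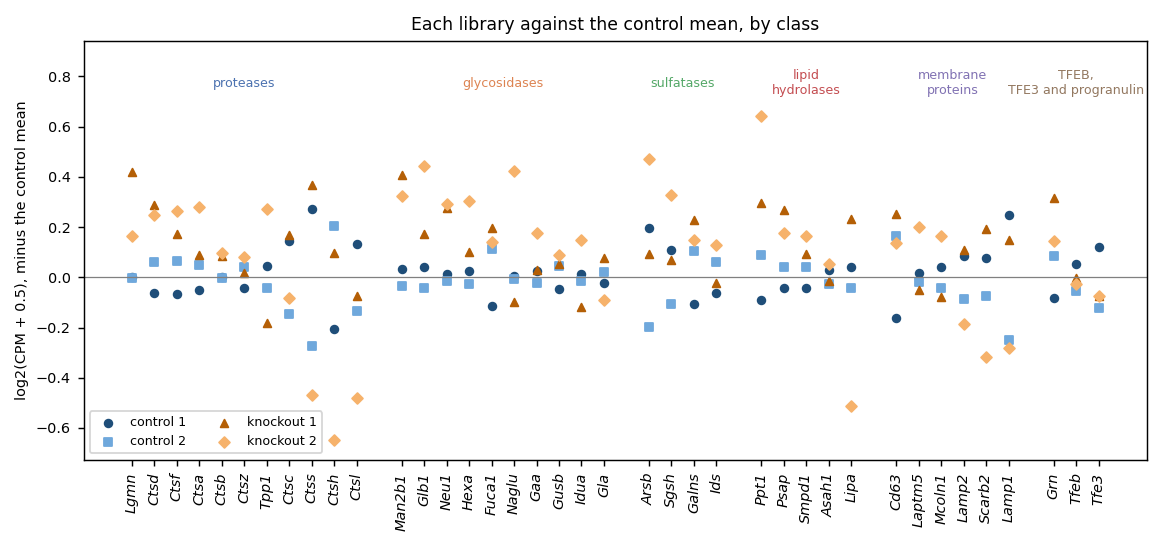
Each library's log2(CPM + 0.5) minus the control mean for every gene, grouped by class. In Man2b1 and Neu1 both knockouts lie above 0.2, whereas in Ctss, Ctsh, Lipa and Scarb2 the knockouts fall on both sides of 0.

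Membrane proteins of the lysosome were centred near 0 (median log2 fold change 0.0029), with 3 of 6 positive. In 6 of 6 the genotypes overlapped, where 31.9% of all genes tested did not overlap. Laptm5, a membrane protein of blood cells, was at 967 and 942 CPM in the controls and at 921 and 1097 CPM in the knockouts (log2 fold change 0.07, interval −0.21 to 0.36). Cd63, a tetraspanin of late endosomes, was at 712 and 892 CPM and at 950.4 and 875 CPM (0.19, interval −0.12 to 0.50), which became 0.03 without control 1 and 0.36 without control 2. Mcoln1, a calcium channel whose opening can activate calcineurin and so TFEB, was at 78.6 and 74.1 CPM and at 72.3 and 85.6 CPM (0.04, interval −0.22 to 0.30). In Laptm5 and Mcoln1 the knockouts lay on either side of the controls, and in Cd63 knockout 2 lay inside their range. The structural proteins Lamp1 and Lamp2, and Scarb2, which carries beta-glucocerebrosidase to lysosomes, had log2 fold changes of −0.07, −0.04 and −0.06, with replicate 1 above replicate 2 in both genotypes. Lamp1, for example, was at 232 and 164 CPM in the controls and at 216 and 160.2 CPM in the knockouts.

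The transcription factors showed little difference. Tfeb was at 26.6 and 24.6 CPM in the controls and at 25.5 and 25.1 CPM in the knockouts, with both knockouts inside the range of the controls (log2 fold change −0.02, interval −0.29 to 0.25, adjusted p = 0.9998). Tfe3 was at 54.2 and 45.7 CPM in the controls and at 47.2 and 47.3 CPM in the knockouts, again inside that range (−0.07, interval −0.34 to 0.19, adjusted p = 0.9998). The signs of both changed when control 1 was left out (0.039 for Tfeb and 0.047 for Tfe3). Grn, which encodes progranulin, a protein that travels to the lysosome with prosaposin and supports its enzymes, was at 1849 and 2078 CPM in the controls and at 2437 and 2169.7 CPM in the knockouts, without overlap (0.23, interval −0.08 to 0.54, adjusted p = 0.9998). The 12 genes with an E-box core in a window had a median log2 fold change of 0.17, and the 23 with a window and no core had 0.07. For TCACGTGA the medians were 0.11 with and 0.10 without it, and for TCATGTG 0.05 with and 0.12 without it, the other way round. These differences were not tested.

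Taken by class, medians were 0.19 for sulfatases, 0.16 for glycosidases, 0.13 for lipid hydrolases, 0.05 for proteases, 0.0029 for membrane proteins and −0.02 for the 3 regulators. The order of the classes was not tested and changed with the libraries used: without knockout 2 the lipid hydrolases led at 0.23, and glycosidases, sulfatases and membrane proteins were at 0.089, 0.081 and 0.13. Summed, the 39 genes took 2.48% and 2.46% of the signal of the control libraries and 2.74% and 2.72% of that of the knockout libraries (2.47% ± 0.016 and 2.73% ± 0.016, SD, n = 2 each). The groups did not overlap. An exact permutation test of 2 against 2 libraries cannot reach p under 0.05, so it cannot decide whether this gap is more than replicate spread. The small SDs of the sum understate the spread of its parts. Sulfatases alone had SDs of 0.051 in the controls and 0.053 in the knockouts, in percent of signal, and their groups overlapped. Differences between replicates thus partly cancelled in the sum. Relative to the controls the share was 10.7% higher. Arsb, Ctsd, Psap, Hexa, Grn and Ctsb made up 77.3% of the summed difference in CPM and 61.8% of the control sum. Without the 7 genes that share 10% or more of their exon bases with another gene model, among them Arsb, Ctsd, Hexa and Ctsb, the share was 1.25% in the controls and 1.36% in the knockouts.

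**Figure D4:**
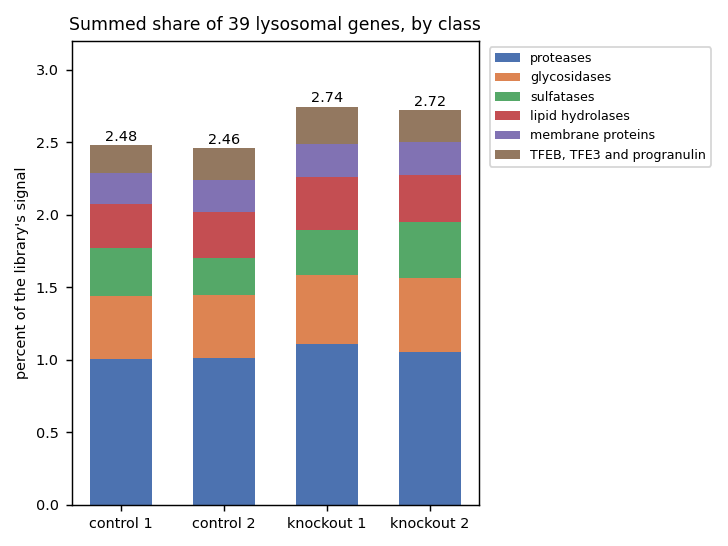
Percent of each library's signal that fell on the 39 genes, stacked by class, with the total above each bar. Totals are 2.48 and 2.46 for the control bars and 2.74 and 2.72 for the knockout bars.

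Differences inside a genotype were often as large as those between genotypes. In 28 of the 39 genes the gap between replicates of at least 1 genotype, on the log2 scale, exceeded the difference between genotype means, and in 16 genes both gaps did. Replicate 1 was above replicate 2 in both genotypes in 10 genes, among them Ctss, Ctsl, Lipa, Lamp1, Lamp2 and Scarb2, and replicate 2 was above replicate 1 in both in 7, among them Ctsa, Ctsz, Gusb and Ppt1. Knockout 2 had the highest summed osteoclast markers, as given above, and was above knockout 1 in 21 of the 39 genes. It was the highest library in Arsb, Naglu, Tpp1, Glb1 and Ppt1, among others. In Ctss, Ctsh, Ctsl, Lipa and Scarb2, among others, it was the lowest. Knockout 2 was the highest library in more of the 39 genes than it was the lowest. Without knockout 1, 11 of the 39 genes had an unadjusted p under 0.05 (6.81% of all genes did), 4 of them lower in the knockout (Ctss, Ctsh, Ctsl and Lipa). Without knockout 2 there were 4 such genes (5.76% of all genes), all higher: Ppt1, Man2b1, Lgmn and Neu1. Without control 1 there were 2, Man2b1 and Neu1 (3.62% of all genes), and without control 2 there were 2, Ppt1 and Man2b1 (3.49%). Man2b1 was thus at an unadjusted p under 0.05 in each of these 4 fits.

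Other genes of the pathway gave 0 called genes with limma, edgeR and DESeq2. Of 20 further lysosomal hydrolases and cofactors, 15 were positive, 0 had an unadjusted p under 0.05, and the median log2 fold change was 0.10. Of 10 genes of mannose 6-phosphate tagging and sorting, 9 were positive with a median of 0.07, among them Gnptab, the transferase that makes the tag, at 1270.3 ± 61.5 and 1291 ± 120 CPM, and the receptor gene Igf2r at 966 ± 9.77 and 1025 ± 89.0 CPM. Of 17 further membrane proteins and transporters, 10 were positive with a median of 0.02, and 1 of the 17 had an unadjusted p under 0.05, a share near the 4.9% of all genes tested. That gene was Tpcn2, an endolysosomal cation channel, at 29.6 and 29.9 CPM in the controls and at 23.3 and 19.95 CPM in the knockouts. Both knockouts lay below both controls (log2 fold change −0.46, SE 0.13, interval −0.75 to −0.16, unadjusted p = 0.00755, limma adjusted p = 0.594).

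Of 18 listed genes among the TFEB-related factors and the mTORC1 and calcineurin genes that act on TFEB, 12 were positive with a median of 0.08 and 0 had an unadjusted p under 0.05. The most abundant were Rragc, a GTPase that brings TFEB and mTORC1 to the lysosome, at 209 ± 0.49 and 239 ± 2.51 CPM (log2 fold change 0.19, interval −0.0073 to 0.39), and Ppp3r1, the regulatory subunit of calcineurin, at 199 ± 1.16 and 217 ± 3.16 CPM. Of 11 listed autophagy genes reported as TFEB targets, 6 were positive with a median of 0.02. Gpnmb, a lysosomal glycoprotein, was at 2247 and 2524 CPM in the controls and at 2620.2 and 1652 CPM in the knockouts, so that knockout 2 was the lowest library, and the autophagy receptor gene Sqstm1 was at 627 ± 80.2 and 625 ± 9.84 CPM. Of 4 listed inhibitors of cathepsins and related proteases, 1 was positive with a median of −0.06, and the most abundant, cystatin C (Cst3), was at 926 ± 58.6 and 989 ± 74.6 CPM. The extracellular hydrolases of the osteoclast, Ctsk, Acp5 and Mmp9, summed to 54742 and 52414 CPM in the controls and to 53453 and 66234 CPM in the knockouts, where only knockout 2 stood above the controls.

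**Figure D5:**
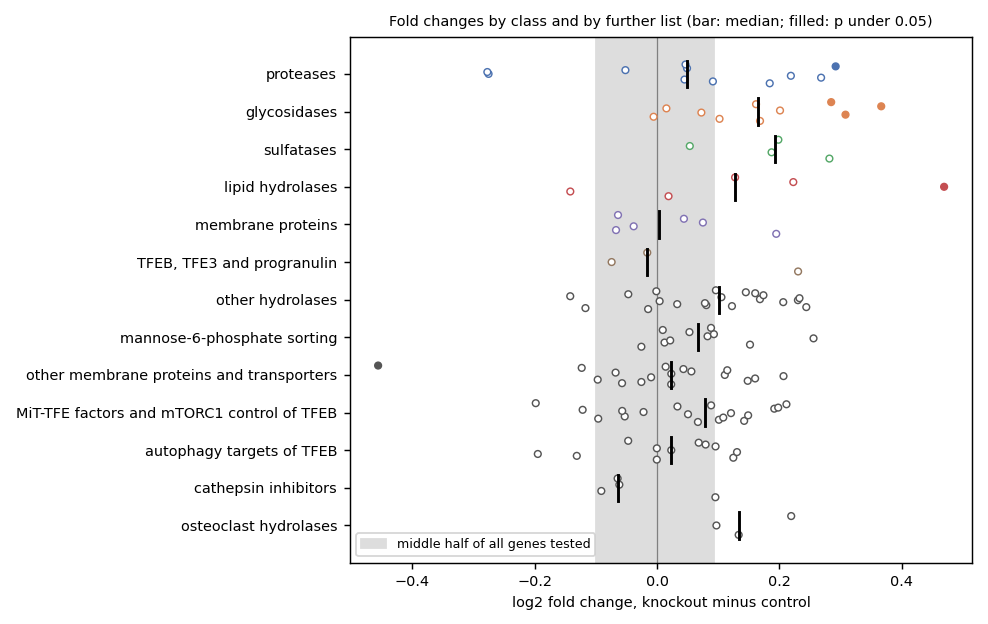
log2 fold changes (knockout minus control) of the 6 classes and of the further lists, with a bar at each median, filled points at an unadjusted p under 0.05 and a grey band for the middle part of all genes tested (between the quartiles). The medians of glycosidases, sulfatases and lipid hydrolases lie between 0.13 and 0.19, and the single filled point left of 0 is Tpcn2.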

How the data were processed

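The authors deposited 1 table of normalised signal for 4 libraries, with STAR, featureCounts, Subread and edgeR and the build mm10 (GRCm38) named in the submitters' processing notes; for versions, annotation release and strand setting nothing was given in the sources used here. Overlapping genes may therefore share reads. From the values, the signal is CPM with TMM scaling: 100% of values lay within 0.001 reads of a whole multiple of 1 read, and CPM recomputed from these reads matched the deposited signal to within 4.9e-11. Genotypes were compared by limma on log2(CPM + 0.5), with an intensity trend and no covariate, over the 11781 genes that reached 1 CPM in 2 or more libraries, 2-sided, with Benjamini-Hochberg adjustment over all of them. A fold change on this scale understates changes of low genes. SDs and intervals rest on 2 libraries per genotype, which the design text calls biological replicates. edgeR and DESeq2 were run on the recovered reads.

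The 39 genes, the classes and the further lists were chosen with earlier results of these data known, so lists are described by counts and medians without a list test. Described in full were genes at an unadjusted p under 0.05, the 2 of each class with the highest CPM per kb averaged over both genotypes, and Tfeb, Tfe3, Grn and Mcoln1, and from each further list up to 4 genes at an unadjusted p under 0.05 or else the 2 most abundant. For the further hydrolases the single genes this rule names are not reported here. Genes named beyond this (Ctsb, Ctss, Ctsl, Ctsh, Naglu, Lipa and Lamp1 with values) were chosen after their values were seen. Exon lengths and positions came from GENCODE M21 on GRCm38, in which all 39 symbols matched. On simulated reads for 11658 genes the limma step was tested for the same comparison, with 47.8% of 67 genes changed 1.5-fold recovered, 95.5% of 67 changed 2-fold and 100% of 66 changed 4-fold. Alternatives changed the pseudocount, the filter, the scaling or the variance model, added a block for the replicate number, or left out 1 library. Versions were limma 3.58.1, DESeq2 1.42.0 and edgeR 4.0.16 in R 4.3.3, and Python 3.11.15 with pandas 2.3.3 and matplotlib 3.10.9.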

Additional observations from a re-analysis of the deposited data

How the results depend on the processing

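Across the alternatives other than leaving out a library, 0 of the 39 genes passed, and 3 to 7 had an unadjusted p under 0.05 (3 without an intensity trend, where 5.81% of all genes did, and 7 with DESeq2, where 2.68% did). With 1 library left out, 0 to 1 passed and 2 to 11 had an unadjusted p under 0.05, while over all genes 7 to 76 were called. Over all genes 19 were called, 4 without an intensity trend and 66 with DESeq2. The replicate number as a block gave 89 calls over all genes, 0 of the 39, medians as before and 6 of the 39 at an unadjusted p under 0.05, of which 1 was lower in the knockouts (Ctsl, −0.28); deviations of same-numbered libraries had a correlation of −0.0016 over 11781 genes and of 0.157 over the 39, and no label says that the numbers pair the libraries. The median of the 39 genes was 0.0898 to 0.148 with 1 library left out and 0.0629 to 0.0912 otherwise. Class medians with 1 library left out were 0.0896 to 0.134 for proteases, 0.089 to 0.234 for glycosidases, 0.081 to 0.237 for sulfatases, 0.0865 to 0.23 for lipid hydrolases, −0.0615 to 0.129 for membrane proteins and −0.0709 to 0.047 for Tfeb, Tfe3 and Grn. The protease median was also 0.036 after quantile normalisation, 0.025 with totals only, 0.061 with edgeR and 0.0605 with DESeq2. The difference in summed share, 0.263 percentage points, was 0.252 to 0.275 with 1 library left out, 0.247 without Ctsb, and, as alternatives chosen after seeing the data, 0.296 with Ctsk, Acp5, Mmp9 and Tdtomato taken out of the total and 0.112 without genes sharing 10% or more of their exon bases; these follow from the genes summed. Of the 39 genes, single fold changes were followed across all alternatives only for those described in full. Among these the sign changed for Asah1 with totals only (−0.0051). With 1 library left out it changed for Asah1 (−0.0143 to 0.0519), Tfeb (−0.0709 to 0.0389), Tfe3 (−0.195 to 0.047), Laptm5 (−0.0511 to 0.201) and Mcoln1 (−0.0776 to 0.165). Signs of other genes changed too. Knockout 1 alone was below both controls in Naglu (142 against 153 and 151 CPM). In Lipa it was above both (319.5 against 280.5 and 264 CPM). Of the 39 genes, 28 to 34 were positive with 1 library left out. The cause of these changes was not tested. Without changing sign, 1 left-out library moved by over 1.5 times Arsb (0.0844 to 0.479), Cd63 (0.0313 to 0.358), Ctsz (0.00828 to 0.0896), Galns (0.0815 to 0.293), Glb1 (0.171 to 0.445), Grn (0.146 to 0.315), Hexa (0.0998 to 0.302), Lgmn (0.165 to 0.419) and Ppt1 (0.296 to 0.642). With 2 libraries per genotype the median half-width of the 39 confidence intervals was 0.289 on the log2 scale.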
